A study of Mus musculus with 8 samples.

Results

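The phase II conjugation enzymes of the mouse liver were taken as the protein-coding genes whose symbols begin with Gst and a class letter, with Ugt1, Ugt2 or Ugt3, or with Sult, leaving out Sult1e1. There were 48 such genes among the 18095 genes of the count table, of which 13939 were protein-coding. They comprised 20 glutathione S-transferases (Gst), 19 UDP-glucuronosyltransferases (Ugt) and 9 sulfotransferases (Sult). A further 15 annotated mouse genes fit the same rule but had no row in the table. Membership was decided by symbol, gene type and a row in the count table, and the rule itself used no expression value. The members were, however, chosen with earlier results of these data known.

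Liver RNA came from male mice with a whole-body deletion of Inpp4b, the gene of the lipid phosphatase INPP4B, and from WT males. There were 4 libraries labelled HFD Inpp4b-/- and 4 labelled HFD WT, all from mice aged 12 weeks. Every animal had been on a high-fat diet (HFD), which the dams had received from before mating, and the sources name no other treatment. The labels give the background as C57BL/6, whereas the methods of the study give FVB. Neither source says whether the animals were littermates, so p-values measure the spread between these libraries. Within HFD Inpp4b-/-, the counts of replicates 1 and 2 were nearest to each other, as were those of replicates 3 and 4. Within HFD WT, replicates 2 and 3 were nearest to each other. Whether such libraries are independent is not known, so n gives the number of libraries. Library totals ran from 25893430 to 31427831 counts in HFD WT and from 32738435 to 36662531 in HFD Inpp4b-/-. Inpp4b itself was counted 6, 20, 5 and 8 times in HFD WT replicates 1 to 4. The counts were 33, 10, 9 and 14 in HFD Inpp4b-/- replicates 1 to 4. The groups overlapped (log2 ratio of mean CPM 0.49, two-sided exact permutation p = 0.486, n = 4 a group), so the deletion was not visible in the gene's own counts, and the groups below are named by their labels. Hepatocyte markers were abundant in all 8 libraries. Of 8 listed markers, the 7 whose listed symbol had a row summed to 81388 to 104694 CPM. Here CPM stands for counts scaled by TMM-normalized library totals and then to a common total. All 5 adipocyte markers examined were without a row in the table.

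Phase II enzymes attach a polar group to drugs, bile pigments, steroids, bile acids and reactive lipid products, so that these can leave the cell. GST enzymes use glutathione, UGT enzymes use glucuronic acid carried by UDP, and SULT enzymes use sulfate carried by the cofactor PAPS. Hepatocytes are the main site of all 3 reactions. Nuclear receptors such as CAR and PXR, the aryl hydrocarbon receptor and the stress-responsive factor NRF2 are known to raise several of these genes.

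Many members are close copies, and the copies decide how far a count can be given to one gene. The Gstp genes lie side by side on the minus strand of chromosome 19 (GRCm38), with Gstp1 at chr19:4035407-4037985, Gstp2 at chr19:4040285-4046023 and Gstp3 at chr19:4057477-4059569. Their first 90 coding bases are shown because the results turn on telling Gstp1 from Gstp3, and capitals mark the positions at which the 3 genes are not all alike.
Gstp1: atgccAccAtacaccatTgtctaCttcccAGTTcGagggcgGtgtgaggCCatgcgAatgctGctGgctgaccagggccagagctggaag
Gstp2: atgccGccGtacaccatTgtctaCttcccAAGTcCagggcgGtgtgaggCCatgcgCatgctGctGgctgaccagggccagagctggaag
Gstp3: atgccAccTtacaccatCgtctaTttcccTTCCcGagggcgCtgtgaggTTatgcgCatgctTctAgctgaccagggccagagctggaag
In this stretch, Gstp2 had 6 and Gstp3 had 13 differences from Gstp1. Over all coding bases, Gstp1 and Gstp2 were 98.1% identical, while Gstp1 and Gstp3 were 72.4% identical. Of all stretches of 150 bases, the read length, 41.8% in the Gstp1 transcript and 49.4% in the Gstp2 transcript also occurred in a transcript of another gene. The Gstp3 transcript held no such stretch.

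The Ugt1a genes are a different case, since on chromosome 1 they have separate first exons and a common set of later exons. Ugt1a6b (chr1:88103252-88219003, plus strand) and Ugt1a6a (chr1:88134809-88218997) were 98.4% identical over 1593 coding bases. Coding bases 271 to 360 are shown, because they hold 13 of the 26 differing positions, which are in capitals.
Ugt1a6a: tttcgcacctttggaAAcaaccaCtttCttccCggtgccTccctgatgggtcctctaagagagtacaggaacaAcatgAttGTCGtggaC
Ugt1a6b: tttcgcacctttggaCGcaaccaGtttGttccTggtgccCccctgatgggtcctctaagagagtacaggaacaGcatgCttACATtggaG
All 9 Ugt1a members shared stretches of read length with other genes, from 56.1% of the transcript in Ugt1a1 to 100% in Ugt1a6a, whose coding bases are also annotated in a Ugt1a7c transcript. Outside Ugt1a, 31 of 39 members shared none, and the others with some were Gsta1, Gsta2, Gstm3, Gstp1, Gstp2, Gstt3, Ugt2b5 and Ugt2b38. The counts of members with shared stretches are uncertain, because reads that fit several genes may have been dropped or split. The way such reads were handled is not given in the sources used here.

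The levels of the members spanned more than 5 orders of magnitude in RPKM, the CPM per kilobase of the union of annotated exons, which was used to set genes beside each other. On this scale, Gstp3, a pi-class transferase, was at the top with a mean of 1025 RPKM over 8 libraries (range 463 to 1302). Gstm1, a mu-class transferase, followed at 789.7 RPKM (range 537 to 1494). The ranges of these neighbours overlapped. Ugt2b5 had a mean of 367.9 RPKM, Gstp1 of 354.2, Ugt2b36 of 313.9 and Gsta3 of 278.8, with overlapping ranges. The highest sulfotransferases were Sult2a8 at 215.8 RPKM and Sult1a1 at 161.6 RPKM. At the other end, Sult2b1 had a mean of 0.00742 RPKM and Sult4a1 of 0.0573. Levels and their order depended on the length used. Per kilobase of the transcript with the longest coding sequence, a scale added after the order was seen, Gstm1 (mean 1405) passed Gstp3 (1315), followed by Gsta3 (831) and Gstp1 (668). By mean CPM, with no length, Gsta3 (1211) and Gstm1 (1163) were above Gstp3 (931). Dividing the same CPM by only the exon bases that no other gene covers gave Ugt1a9 a mean of 138.3 in place of 55.5 RPKM. For Ugt1a1, the same step gave 67.0 in place of 11.6 RPKM. Such values are levels over those bases only if no read from shared bases was counted, which is not known here.

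**Figure D1:**
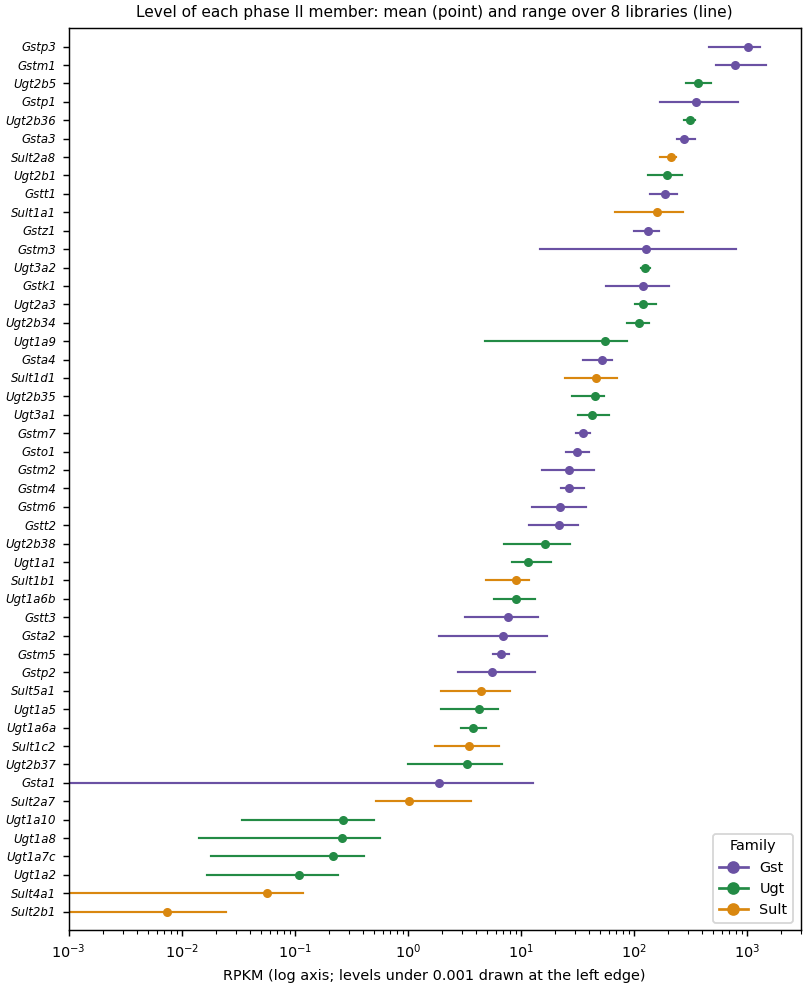
Mean RPKM (point, log axis) and range over the 8 libraries (line) of all 48 members, coloured by family. On this scale, Gstp3 and Gstm1 lie at the top and Sult4a1 and Sult2b1 at the bottom, and the widest lines among members over 100 RPKM belong to Gstm3 and Gstp1.

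Summed over the family on the RPKM scale, the Gst members made up 64.7% of the RPKM of all members in HFD WT, the Ugt members 26.9% and the Sult members 8.37%. The corresponding shares in HFD Inpp4b-/- were 62.3%, 28.9% and 8.85%. The summed Gst level was 2869, 4725, 3242 and 3250 RPKM in HFD WT replicates 1 to 4, and 2890, 2742, 3123 and 3303 RPKM in HFD Inpp4b-/- replicates 1 to 4. HFD WT replicate 2 stood above the other libraries, and without it the Gst mean was 3120 ± 218 RPKM (SD, n = 3) against 3015 ± 248 RPKM (SD, n = 4) in HFD Inpp4b-/-. The Ugt sum was 1464 ± 43.1 RPKM in HFD WT and 1399 ± 120 RPKM in HFD Inpp4b-/- (SD, n = 4). The Sult sum was 455 ± 110 RPKM and 429 ± 98.8 RPKM in the same order. For each of the 3 sums, the ranges of the groups overlapped.

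**Figure D2:**
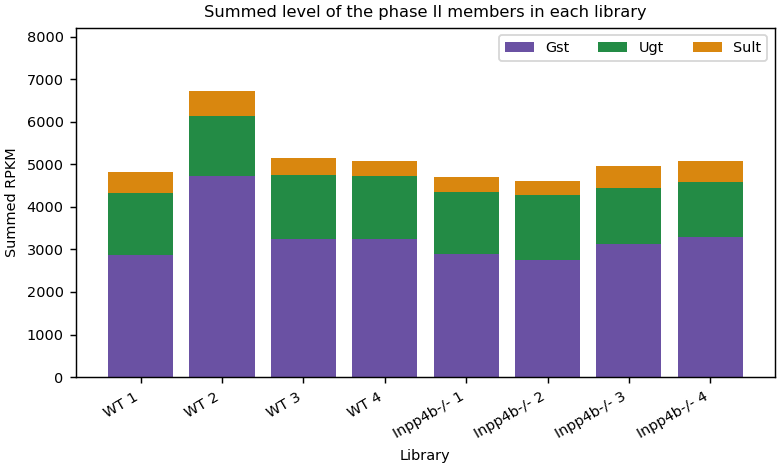
Summed RPKM of the Gst, Ugt and Sult members (stacked bars) in each of the 8 libraries. HFD WT replicate 2 has the tallest bar, at 6727 RPKM, and the other 7 bars lie between 4608 and 5157 RPKM.

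The comparison of the deposited libraries asked which conjugation enzymes differed between livers labelled HFD Inpp4b-/- and HFD WT. Of the 48 members, 44 passed edgeR's expression filter and were tested. A member was called at an adjusted p under 0.10 (edgeR quasi-likelihood test, Benjamini-Hochberg over 14866 genes) and a fold change over 1.3. By this rule, 3 of 44 members were called, beside 1.17% of all genes tested. Gstt2, a theta-class transferase, was higher in HFD Inpp4b-/- (1 of 44, with 0.552% of all genes called higher). Gstp1 and Ugt1a6b were lower (2 of 44, with 0.619% of all genes called lower). At an unadjusted p under 0.05, there were 12 of 44 members, 4 higher and 8 lower, beside 13.9% of all genes. The groups did not overlap in 7 of 44 members, beside 8.72% of all genes. The median log2 fold change was -0.08 over the members and 0.00 over all genes tested, and the median size of the log2 fold change was 0.35 and 0.18. In whole liver, fewer cells of a type and less RNA per cell cannot be told apart.

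**Figure D3:**
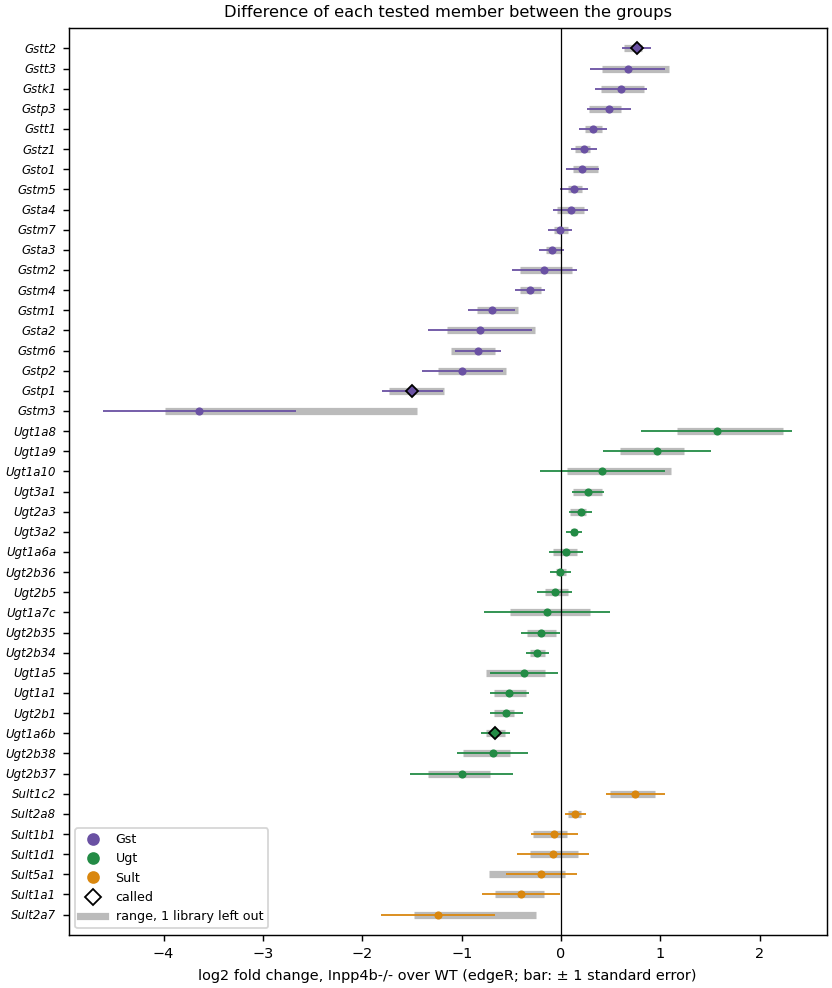
Log2 fold change of HFD Inpp4b-/- over HFD WT for the 44 tested members (points, with bars of 1 standard error), ordered within the family, and the range of that value when each library in turn is left out (grey). Called members are diamonds: Gstt2 lies at 0.76, Ugt1a6b at -0.66 and Gstp1 at -1.50, and Gstm3 has the widest grey range, from -3.98 to -1.45.

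Among the Gst genes, 19 of 20 were tested, 2 were called and 8 had an unadjusted p under 0.05, with a median log2 fold change of -0.01. The pi class gave opposite signs within one cluster. Gstp1 (ENSMUSG00000060803) was at 600, 399, 956 and 1284 CPM in HFD WT replicates 1 to 4. In HFD Inpp4b-/- replicates 1 to 4, it was at 264, 290, 330 and 264 CPM. All 4 HFD Inpp4b-/- libraries were below all 4 HFD WT libraries, and the spread was far wider in HFD WT (810 ± 391 CPM) than in HFD Inpp4b-/- (287 ± 31.2 CPM; SD, n = 4). Gstp1 was 2.82-fold lower in HFD Inpp4b-/- (log2 fold change -1.50, standard error 0.31, edgeR adjusted p = 0.0804). Leaving out each library in turn kept the sign in all 8 fits (log2 fold change -1.73 to -1.18), but Gstp1 was called in 1 of 8. That fit left out HFD WT replicate 2 (edgeR adjusted p = 0.0142), and leaving out any other library gave 0.101 to 0.224.

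Gstp3 was higher in every HFD Inpp4b-/- library than in any HFD WT library. Its values were 802, 974, 907 and 420 CPM in HFD WT replicates 1 to 4. They were 1081, 997, 1084 and 1182 CPM in HFD Inpp4b-/- replicates 1 to 4. The closest libraries were 974 and 997 CPM, and the difference was not called (log2 fold change 0.49, standard error 0.22, edgeR adjusted p = 0.368). HFD WT replicate 4 had at once the highest Gstp1 and the lowest Gstp3 value. Gstp2 was low in all libraries, at 3.90 to 14.8 CPM in HFD WT and 3.09 to 5.38 CPM in HFD Inpp4b-/-, and was not called (log2 fold change -0.99, edgeR adjusted p = 0.315). HFD WT replicates 3 and 4 were the highest libraries for both Gstp1 and Gstp2, which share 41.8% and 49.4% of their read-length stretches with other genes. The summed Gstp level depended on the scale. In CPM it was 1594 ± 242 in HFD WT and 1377 ± 70.4 in HFD Inpp4b-/- (SD, n = 4). In RPKM, which divides Gstp1 by 1548 and Gstp3 by 908 exon bases, it was 1385 ± 162 and 1385 ± 78.0. Per kilobase of transcript it was 2092 ± 284 and 1889 ± 99.3.

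All 3 theta-class genes had positive log2 fold changes. Gstt2 (ENSMUSG00000033318, chr10:75831114-75837424, minus strand) was at 49.6, 75.0, 70.9 and 75.3 CPM in HFD WT replicates 1 to 4. Its values in HFD Inpp4b-/- replicates 1 to 4 were 133, 115, 104 and 106 CPM. Every HFD Inpp4b-/- library was above every HFD WT library, and Gstt2 was 1.69-fold higher (log2 fold change 0.76, standard error 0.14, edgeR adjusted p = 0.0615). Leaving out each library in turn gave log2 fold changes of 0.64 to 0.81. The call held without HFD WT replicate 1, 2 or 4 (edgeR adjusted p = 0.0646 to 0.0748) and was lost without HFD WT replicate 3 or any HFD Inpp4b-/- library (0.101 to 0.168). Gstt1, its neighbour on chromosome 10, was at 212 to 303 CPM in HFD WT and 276 to 368 CPM in HFD Inpp4b-/-, and did not pass (log2 fold change 0.32, standard error 0.14, edgeR adjusted p = 0.354). Gstt3 had the widest spread of the class, 12.3 to 40.6 CPM in HFD WT and 21.4 to 54.9 CPM in HFD Inpp4b-/- (log2 fold change 0.67, edgeR adjusted p = 0.464).

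**Figure D4:**
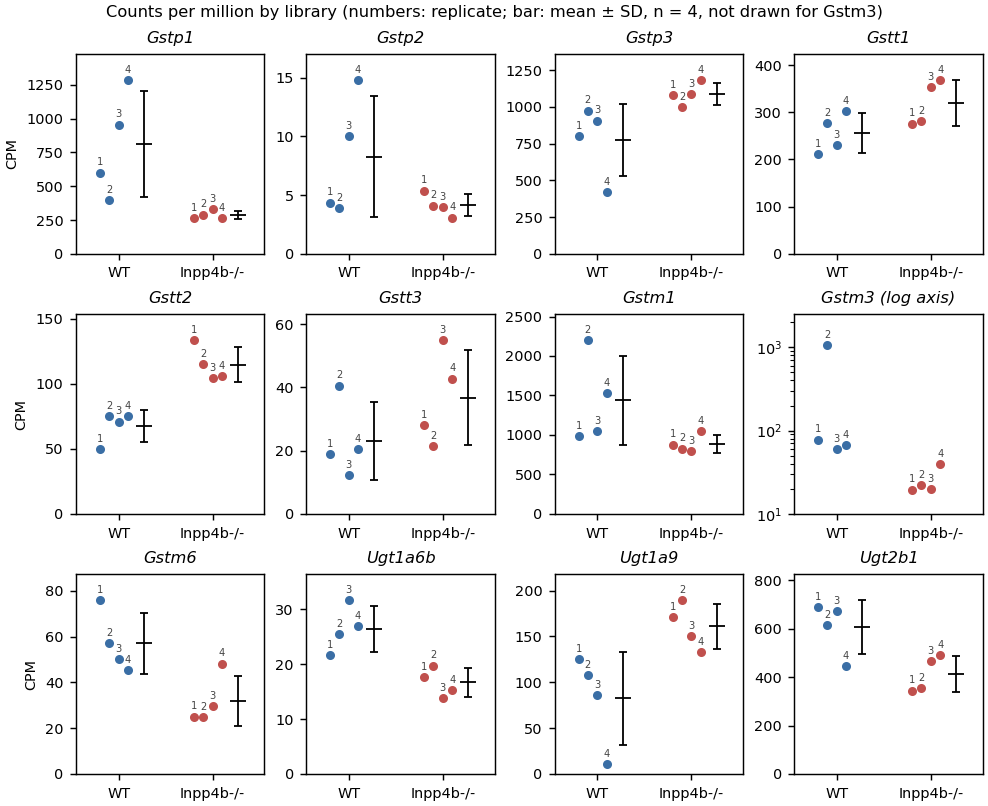
CPM of 12 members in each library (points numbered by replicate), with the mean and SD of 4 libraries beside them except for Gstm3, which is on a log axis. The groups do not overlap for Gstp1, Gstp3, Gstt2, Gstm3, Ugt1a6b and Ugt1a9, and HFD WT replicate 2 lies at 1053 CPM for Gstm3.

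No mu-class gene was called among 7 tested, and 6 of 7 had negative log2 fold changes, 3 of them with an unadjusted p under 0.05. Gstm3 had the most negative value of all members, and 1 library made most of it. In HFD WT replicates 1 to 4 it was at 78.1, 1053, 60.4 and 67.0 CPM. In HFD Inpp4b-/- replicates 1 to 4 it was at 19.6, 22.2, 20 and 39.2 CPM. The groups did not overlap, but HFD WT replicate 2 was 13.5 times the next HFD WT library. With all libraries, the log2 fold change was -3.64 (standard error 0.97, edgeR adjusted p = 0.155). Without HFD WT replicate 2, it was -1.45 and passed both thresholds (edgeR adjusted p = 0.0370).

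Gstm1, the most abundant mu-class gene, was at 984, 2200, 1050 and 1526 CPM in HFD WT replicates 1 to 4. In HFD Inpp4b-/- replicates 1 to 4, it was at 878, 826, 791 and 1050 CPM. Only HFD WT replicate 1 lay below the highest HFD Inpp4b-/- library, and the difference was not called (log2 fold change -0.70, standard error 0.24, edgeR adjusted p = 0.242). Without HFD WT replicate 2, the log2 fold change was -0.43. Gstm6 was at 75.9, 57.0, 50.1 and 45.4 CPM in HFD WT and at 25.0, 24.9, 29.8 and 48.1 CPM in HFD Inpp4b-/-. Only HFD Inpp4b-/- replicate 4 reached into the HFD WT range (log2 fold change -0.84, standard error 0.23, edgeR adjusted p = 0.171). Without that replicate, Gstm6 was at -1.10 and was called (edgeR adjusted p = 0.0552). The log2 fold changes of the other 4 mu-class genes lay between -0.31 and 0.13.

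Of the remaining Gst genes, none was called. Gsta3, the main alpha-class gene here, was at 1092 to 1502 CPM in HFD WT and 1053 to 1311 CPM in HFD Inpp4b-/- (log2 fold change -0.10, standard error 0.13, edgeR adjusted p = 0.778). Gstk1, a kappa-class enzyme of mitochondria and peroxisomes, was at 83.9 to 206 CPM in HFD WT and 173 to 299 CPM in HFD Inpp4b-/- (log2 fold change 0.60, edgeR adjusted p = 0.348). Gstz1, which acts in tyrosine breakdown, and the omega-class Gsto1 had log2 fold changes of 0.23 and 0.21.

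Of the 19 Ugt genes, 18 were tested, 1 was called and 3 had an unadjusted p under 0.05, with a median log2 fold change of -0.10. Ugt1a6b (ENSMUSG00000090145) was at 21.6, 25.5, 31.7 and 26.9 CPM in HFD WT replicates 1 to 4. In HFD Inpp4b-/- replicates 1 to 4 it was at 17.7, 19.8, 13.9 and 15.4 CPM. The groups did not overlap, the closest libraries being at 19.8 and 21.6 CPM. Ugt1a6b was 1.58-fold lower in HFD Inpp4b-/- (log2 fold change -0.66, standard error 0.15, edgeR adjusted p = 0.0942). The call held without HFD WT replicate 1 or 2 (edgeR adjusted p = 0.0930 and 0.0994) and was lost without any of the other 6 libraries (0.131 to 0.217). Ugt1a6a, whose sequence is set beside it above, was at 13.2 to 18.8 CPM in HFD WT and 12.8 to 21.1 CPM in HFD Inpp4b-/- (log2 fold change 0.05, standard error 0.17, edgeR adjusted p = 0.930).

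The other Ugt1a genes fell on both sides of 0 and none was called. Ugt1a1, the bilirubin-conjugating enzyme, was at 19.8, 40.9, 28.1 and 32.9 CPM in HFD WT replicates 1 to 4. In HFD Inpp4b-/- replicates 1 to 4 it was at 23.9, 18.4, 19.8 and 22.6 CPM, so that only HFD WT replicate 1 overlapped (log2 fold change -0.52, standard error 0.20, edgeR adjusted p = 0.279). Ugt1a9, the most abundant Ugt1a gene, was at 125, 108, 85.8 and 10.5 CPM in HFD WT replicates 1 to 4. Its values were 171, 189, 150 and 133 CPM in HFD Inpp4b-/- replicates 1 to 4. All of these were above the HFD WT libraries, but HFD WT replicate 4 was far below the other 3 and the difference was not called (log2 fold change 0.96, standard error 0.54, edgeR adjusted p = 0.463). Ugt1a10 and Ugt1a7c were also lowest in HFD WT replicate 4, at 0.0768 CPM each. Ugt1a8 had the largest positive log2 fold change, 1.56 (standard error 0.76, edgeR adjusted p = 0.395), from a low level. It was at 0.627, 0.0315, 0.471 and 0.0384 CPM in HFD WT and at 1.28, 0.919, 0.740 and 0.533 CPM in HFD Inpp4b-/-.

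All 7 Ugt2b genes had negative log2 fold changes, from -1.0 to -0.01 with a median of -0.24, and none was called. UGT2B enzymes conjugate steroids, bile acids and many drugs. Ugt2b1 was at 690, 616, 673 and 446 CPM in HFD WT replicates 1 to 4. In HFD Inpp4b-/- replicates 1 to 4, it was at 344, 354, 465 and 492 CPM. Overlap came from HFD WT replicate 4, which was below HFD Inpp4b-/- replicates 3 and 4 (log2 fold change -0.55, standard error 0.17, edgeR adjusted p = 0.20). The most abundant Ugt2b genes differed little from 0. The log2 fold change was -0.07 for Ugt2b5 and -0.01 for Ugt2b36, with standard errors of 0.18 and 0.11. Ugt2b34 was at 458 to 590 CPM in HFD WT and 378 to 511 CPM in HFD Inpp4b-/- (log2 fold change -0.24, standard error 0.12, edgeR adjusted p = 0.398). Ugt2b37 and Ugt2b38 were lowest of all 8 libraries in HFD WT replicate 2, at 1.92 and 13.3 CPM, against at least 6.03 and 38.4 CPM in the other 3 HFD WT libraries. Without that library, Ugt2b38 was called lower in HFD Inpp4b-/- (log2 fold change -0.99, edgeR adjusted p = 0.0469).

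The other 3 Ugt genes had positive values and were not called. Ugt2a3 was at 215 to 265 CPM in HFD WT and 239 to 331 CPM in HFD Inpp4b-/- (log2 fold change 0.20, edgeR adjusted p = 0.490). Ugt3a2 varied little, at 358 to 380 CPM in HFD WT and 382 to 433 CPM in HFD Inpp4b-/-. These ranges did not overlap, yet the difference was small and was not called (log2 fold change 0.13, standard error 0.08, edgeR adjusted p = 0.493). UGT3A enzymes differ from the other families in the sugar they transfer. Ugt3a1 had a log2 fold change of 0.27 (edgeR adjusted p = 0.493).

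None of the 7 tested Sult genes was called by edgeR, and 1 had an unadjusted p under 0.05. That gene was Sult1c2, at 3.24 to 6.64 CPM in HFD WT and 5.05 to 11.9 CPM in HFD Inpp4b-/- (log2 fold change 0.75, standard error 0.29, edgeR adjusted p = 0.299). Sult2a8, which sulfates bile acids in mouse liver, was at 565 to 755 CPM in HFD WT and 707 to 775 CPM in HFD Inpp4b-/- (log2 fold change 0.14, standard error 0.11, edgeR adjusted p = 0.590). Sult1a1, a phenol sulfotransferase, split within both groups. It was at 336, 408, 176 and 191 CPM in HFD WT replicates 1 to 4. It was at 131, 103, 311 and 293 CPM in HFD Inpp4b-/- replicates 1 to 4. The difference between the groups was smaller than this spread (log2 fold change -0.41, standard error 0.39, edgeR adjusted p = 0.689). Sult1d1 had a like spread, 60.7 to 176 CPM in HFD WT and 63.6 to 160 CPM in HFD Inpp4b-/- (log2 fold change -0.08, edgeR adjusted p = 0.945). Sult1b1 lay at -0.07 ± 0.24 and Sult5a1 at -0.20 ± 0.36 (log2 fold change ± standard error). Sult2a7 was at 0.806 to 4.60 CPM in HFD WT and 0.674 to 0.868 CPM in HFD Inpp4b-/- (log2 fold change -1.24, standard error 0.57, edgeR adjusted p = 0.372). Its highest value was that of HFD WT replicate 2, and without this library the log2 fold change was -0.26.

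The 4 members under the expression filter were compared by mean CPM and a two-sided exact permutation test, whose smallest p with 4 against 4 libraries is 0.0286. Sult4a1, best known as a brain sulfotransferase, was counted 8, 9, 7 and 5 times in HFD WT and 0, 2, 2 and 1 times in HFD Inpp4b-/-. It was at least 2.94-fold lower in HFD Inpp4b-/-, taking 3 counts in each library as the limit of detection (exact permutation p = 0.0286, the smallest possible, n = 4 a group). Sult2b1 was counted 0 times in all 4 HFD WT libraries and 2, 1, 3 and 2 times in HFD Inpp4b-/-, all within the limit of 3 counts, so no fold is given. It too had the smallest possible p (exact permutation p = 0.0286), although no library exceeded 3 counts. Gsta1 was at 0, 12.2, 0.135 and 0.691 CPM in HFD WT replicates 1 to 4 and at 0.0832, 0.840, 0.129 and 0.281 CPM in HFD Inpp4b-/- (exact permutation p = 0.657). Ugt1a2 was at 0.0369 to 0.535 CPM in HFD WT and 0.0561 to 0.444 CPM in HFD Inpp4b-/- (exact permutation p = 0.771). Sult1e1, the estrogen sulfotransferase that the membership rule left out, was counted 13, 27, 9 and 1 times in HFD WT and 1, 1, 0 and 5 times in HFD Inpp4b-/- (exact permutation p = 0.0571).

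HFD WT replicate 2 stood apart for several members at once. Gsta1 was 17.7 times, Gstm3 13.5 times and Sult2a7 4.16 times the next HFD WT library. Cyp2b10, a cytochrome P450 gene known as a target of CAR and chosen after its values were seen, was at 86.8 CPM in this library and at 0 to 2.25 CPM in the other 7. Slco1a4, an organic anion carrier also chosen after its values were seen, was at 154 CPM there and at 13.1 to 44.7 CPM elsewhere. Their part in the Gst results was not tested. By a factor of 2 beyond every other HFD WT library, HFD WT replicate 2 was higher in 2 and lower in 2 of 44 tested members. HFD WT replicate 4 was higher in 0 and lower in 3 by the same measure. Over all genes tested, the shares higher and lower were 1.24% and 1.39% for HFD WT replicate 2. For HFD WT replicate 4 they were 1.74% and 2.72%. Without HFD WT replicate 2, 5 of 44 members were called, namely Gstm3, Gstp1, Gstt2, Ugt1a6b and Ugt2b38, beside 2.26% of 15265 genes. DESeq2 called 7 of 45 members with all libraries, beside 4.04% of 17016 genes. It added Gstm1, Gstm6, Ugt2b1 and Sult4a1 (DESeq2 adjusted p = 0.0759, 0.0244, 0.0579 and 0.0786) to the 3 of edgeR. Gstm3 was given no adjusted p by DESeq2 with all libraries, so it could not be called there. Without HFD WT replicate 2, DESeq2 put Gstm3 at a log2 fold change of -1.45 (DESeq2 adjusted p = 2.3e-06).

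**Figure D5:**
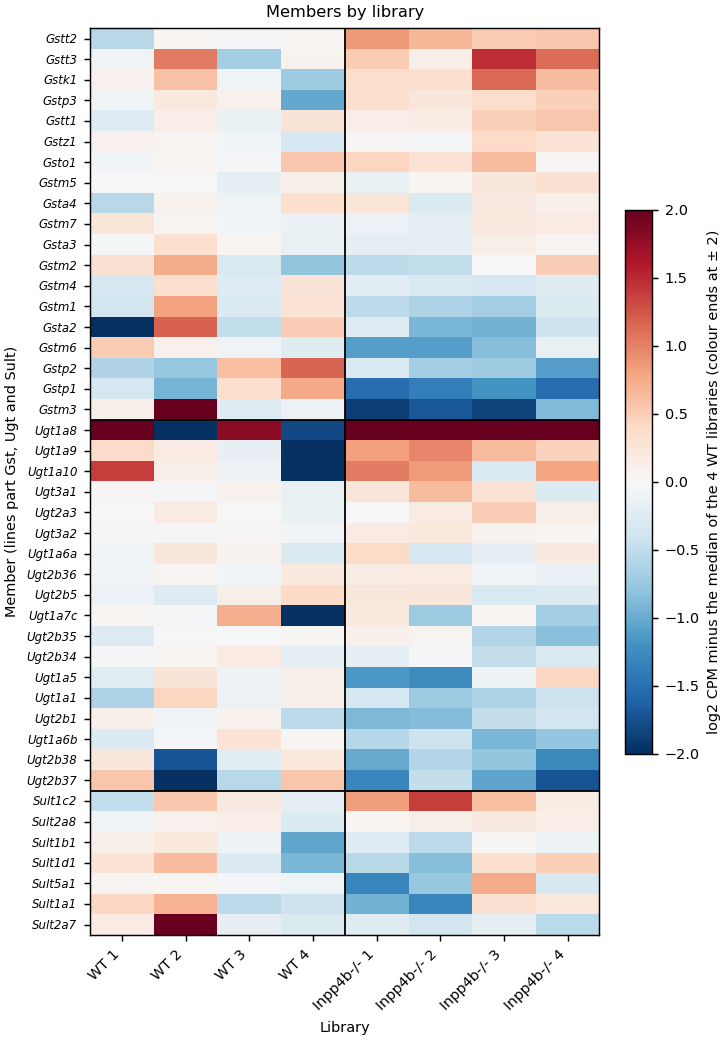
Log2 CPM of the 44 tested members (rows) in each library (columns), minus the median of the 4 HFD WT libraries, with colours ending at 2 in either direction. HFD WT replicate 2 is darkest red for Gstm3 and Sult2a7, HFD WT replicate 4 is darkest blue for Ugt1a9, Ugt1a10 and Ugt1a7c, and the 4 HFD Inpp4b-/- columns are blue for Gstp1.

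Other genes of the conjugation pathway were taken from fixed lists, and edgeR called none of them. Of 11 tested transferases of other families, 3 had an unadjusted p under 0.05. They were the nicotinamide methyltransferase Nnmt (log2 fold change -2.88, edgeR adjusted p = 0.194), the glycine acyltransferase Glyat (-0.33, edgeR adjusted p = 0.195) and the microsomal transferase Mgst3 (0.49, edgeR adjusted p = 0.196). DESeq2 called Nnmt, Mgst3 and Sult1e1 from this list (adjusted p = 0.0754, 0.0817 and 0.0962) and 0 genes from the 4 lists that follow. Among 12 genes of cofactor supply, 2 had an unadjusted p under 0.05, both of the UDP-glucuronic acid route and of opposite sign. Ugp2, which makes UDP-glucose, had a log2 fold change of 0.31 (edgeR adjusted p = 0.212), and Ugdh, which oxidizes it to UDP-glucuronic acid, had one of -0.50 (edgeR adjusted p = 0.247). Gclc, the catalytic subunit for glutathione synthesis, was at 556, 474, 220 and 200 CPM in HFD Inpp4b-/- replicates 1 to 4 and at 193 to 305 CPM in HFD WT (log2 fold change 0.50, edgeR adjusted p = 0.519). Of 10 receptors and regulators, 1 had an unadjusted p under 0.05, lower in HFD Inpp4b-/-. Log2 fold changes were negative for 7 of the 10 and positive for 3, with a median of -0.09. Among the 3 positive ones, Nfe2l2, which encodes NRF2, was at 0.05 (edgeR adjusted p = 0.874). Nr1i3, which encodes CAR, was at 0.10 (edgeR adjusted p = 0.891). Of 10 tested NRF2 target genes, only Txnrd1 had an unadjusted p under 0.05, with an edgeR adjusted p of 0.0853 and a fold under 1.3 (log2 fold change -0.36). None of 8 transporters of conjugates had an unadjusted p under 0.05 by edgeR.

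No marker of any other liver cell type was called by edgeR, while DESeq2 called the cholangiocyte marker Spp1 (adjusted p = 0.0360) and the stellate cell marker Lrat (adjusted p = 0.0310), both higher in HFD Inpp4b-/-. The summed level of 7 macrophage markers was 37.7 to 115 CPM in HFD WT and 85.3 to 137 CPM in HFD Inpp4b-/-, with 0 of 7 at an unadjusted p under 0.05. For 5 cholangiocyte markers it was 23.7 to 31.6 and 29.7 to 40.6 CPM, with 2 of 5, of opposite sign. For 7 stellate cell markers it was 161 to 222 and 170 to 230 CPM, with 3 of 7, all higher. The log2 fold changes of the other 4 stellate cell markers were negative, and the median over the 7 was -0.06. For 7 endothelial markers it was 117 to 151 and 105 to 157 CPM, with 0 of 7. Among hepatocyte genes, 1 of 9 pericentral markers (lower) and 2 of 8 periportal markers (both higher) had an unadjusted p under 0.05. Log2 fold changes were negative for 7 of 9 pericentral and positive for 6 of 8 periportal markers. The pericentral sum was 6750 to 11209 CPM in HFD WT and 8079 to 9103 CPM in HFD Inpp4b-/-. The periportal sum was 57650 to 64153 and 62956 to 78381 CPM in the same order. Alb is on both the periportal and the hepatocyte list, so these 2 sums overlap. The part of all these markers in the member results was not tested.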

How the data were processed

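Liver RNA-seq counts of 4 HFD Inpp4b-/- and 4 HFD WT male mice, grouped by the labels, were used. The authors aligned 150-base paired reads to GRCm38 with HISAT2 and deposited raw HTSeq counts for 18095 genes. They also deposited a normalized signal, each count divided by a factor of its library, which served here only to check the counts. The labels' processing notes also name DESeq2. The annotation release, the strand setting and the handling of reads that fit several genes are not given in the sources used here. Symbols, positions and exon lengths came from GENCODE M21, which held all 18095 identifiers.

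The quasi-likelihood model of edgeR 4.0.16 (R 4.3.3) was applied to the counts of all genes that passed filterByExpr, with TMM scaling and genotype as the sole term. The biological coefficient of variation was 0.251. A gene counted as called where its p, adjusted by Benjamini-Hochberg, was under 0.10 and its fold over 1.3. Members under the filter were compared by mean CPM with an exact permutation test over 70 arrangements, after adding 0.1 CPM before log2. The limit of detection was 3 counts in each library and covers counting error only. RPKM used the union of annotated exons, and transcript length was tried after the values were seen. Alternatives were DESeq2 1.42.0, other scalings, filters and thresholds, leaving out each library in turn, and the replicate number as a block.

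The text names every called member and, in each family, the 5 members of highest RPKM and the 5 of smallest unadjusted p, with other members given mainly by range. Values of further members (such as Gstp2, Gstt3, Gstk1, Ugt1a6a, Ugt1a9, Ugt2b37 and Ugt2b38) and of list genes not called (such as Nnmt, Gclc and Nr1i3) were added after they were seen. The members and the gene lists were chosen with earlier results of these data known.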

Additional observations from a re-analysis of the deposited data

Results flagged for a closer look

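The CPM of all 48 members and the summed CPM of the 3 families were examined, which gave 102 groups of 4 libraries. In 6 of them, the distance of a library from its nearest neighbour exceeded the 95% critical value of Dixon's test for outliers, where chance gives about 1 in 20, or 5.1 here. Gsta1 in HFD WT replicate 2 was at 12.2 CPM, with the nearest HFD WT library at 0.691 CPM. Gstm3 in HFD WT replicate 2 was at 1053 CPM, with the nearest HFD WT library at 78.1 CPM. Sult2a7 in HFD WT replicate 2 was at 4.60 CPM, with the nearest library at 1.11 CPM. Gstm3 in HFD Inpp4b-/- replicate 4 was at 39.2 CPM, with the nearest library at 22.2 CPM. Gsto1 in HFD WT replicate 4 was at 77.4 CPM, with the nearest library at 54.8 CPM. Ugt2b35 in HFD WT replicate 1 was the lowest of its group at 142 CPM, with the nearest library at 168 CPM.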

How the results depend on the processing

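edgeR called 3 members, 1 higher and 2 lower (2 Gst, 1 Ugt and 0 Sult), and 174 of all 14866 genes tested. DESeq2 called 7 (6 lower; 4 Gst, 2 Ugt and 1 Sult), 3 other phase II transferases in place of 0, and 688 of 17016 genes. DESeq2 without HFD WT replicate 2, added after seeing the data, called 12 (4 higher and 8 lower; 7 Gst, 4 Ugt and 1 Sult) and 1004 of 14226 genes. Upper quartile factors, no filter beyond 1 count, and at least 10 counts in every library each left Gstp1 and Gstt2 (1 lower, 0 Ugt). At an adjusted p under 0.05, there were 0 member calls, with 71 over all genes. Leaving out 1 library gave 0 to 5 calls, 0 to 1 higher, 0 to 4 lower, 0 to 3 Gst, 0 to 2 Ugt and 0 Sult. There were 0 without HFD Inpp4b-/- replicate 1, 2 or 3 or HFD WT replicate 3 (77, 53, 58 and 110 calls over all genes, of 15155, 15143, 15201 and 15263 tested), 1 without HFD Inpp4b-/- replicate 4 or HFD WT replicate 4 (109 and 148 over all genes), 2 without HFD WT replicate 1 (89) and 5 without HFD WT replicate 2 (345). Gstp1 was called in 1, Ugt1a6b in 2 and Gstt2 in 3 of these 8 fits. With the replicate number as a block, 0 members were called in total, higher or lower, and 0 in Gst and Ugt, with 26 calls over all 14866 genes. Same-numbered libraries did not deviate together (correlations -0.170 to -0.0104). Deviations were taken from each group's mean, which ties these correlations to one another, so they cannot settle whether the numbers share a source. No such source is known.

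With 1 library left out, 10 of 44 tested members turned sign in at least 1 fit, each with a log2 fold change of at most 0.20 in size over all libraries. Of these, Gsta4, Gstm2, Gstm7, Ugt1a6a and Ugt1a7c are not among the members the naming rule picks. With upper quartile factors, Ugt2b36 was at 0.019. Leaving out 1 library, the range was -0.053 to 0.051 for Ugt2b36, -0.17 to 0.072 for Ugt2b5, -0.28 to 0.055 for Sult1b1, -0.31 to 0.17 for Sult1d1 and -0.73 to 0.038 for Sult5a1. The log2 ratio of mean CPM ranged from -4.31 to 0.28 for Gsta1 and from -0.95 to 0.26 for Ugt1a2, both positive only without HFD WT replicate 2. DESeq2 without that library gave 0.054 for Sult1b1 and 0.17 for Sult1d1. The cause of these differences was not tested. For a member with 3 counts or fewer in every library, no fold could be given at this depth.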
